A study of Homo sapiens with 4 samples.

Results

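Retained-intron transcripts are annotated transcripts of a gene that keep sequence which the gene's coding transcripts remove as intron. All transcripts whose deposited type is retained_intron were taken, which gave 28087 transcripts of 9669 genes out of 206601 transcripts in the series. H1299, an established line from a human non-small-cell lung carcinoma, was sequenced after 48 h with 0.5 mM methylparaben, a preservative of the paraben class (2 libraries), or as a control that the titles name by ethanol (2 libraries). RNA was selected on poly-A beads, so the counts concern polyadenylated RNA. The comparison asks which host genes and functions gained or lost reads on retained-intron transcripts, and whether the protein-coding transcripts of the same genes moved with them.

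During splicing, the spliceosome removes introns from the pre-mRNA, and an intron that stays in a polyadenylated RNA is called retained. Such RNAs are often kept in the nucleus or removed by nonsense-mediated decay, so they commonly give little protein. Genes for splicing factors are known for retained introns through which they adjust their own level, and the pre-mRNA of OGT, the enzyme that adds O-linked N-acetylglucosamine to proteins, is known to keep an intron in the nucleus.

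An intron with bases where reads could be counted, though not always all such bases, is shown for 9 transcripts on which the results turn. They are 3 of the 5 most abundant retained-intron transcripts (OGT-210, ARGLU1-204 and VMP1-216) and transcripts that were higher after methylparaben (SREK1-206, UFD1-205, ATF3-208, COPA-209, SAFB-210 and HNRNPD-210). Sequences are from GENCODE release 29 on GRCh38, 5′ to 3′ on the strand of the gene. Capitals mark the first 6 bases of the intron, which hold the 5′ splice site, and the last 20, which end with the closing AG. A pyrimidine-rich tract commonly precedes that AG, and it was not required of the introns shown. The 6 bases before the first and after the last capitals are exon. The OGT-210 intron lies at chrX:71544636-71547906 on the plus strand and is 3271 bases long. The ARGLU1-204 intron is at chr13:106557132-106559431 on the minus strand (2300 bases). VMP1-216 holds chr17:59838398-59839767 on the plus strand (1370 bases), and SREK1-206 holds chr5:66164898-66170050 on the plus strand (5153 bases). The UFD1-205 intron is at chr22:19450745-19454748 on the minus strand (4004 bases), the ATF3-208 intron at chr1:212618235-212619045 on the plus strand (811 bases), and the COPA-209 intron at chr1:160332558-160333602 on the minus strand (1045 bases).
OGT-210 intron start: gccaagGTAGGTgtttgatagaacacattt
OGT-210 intron end: cttcTTTCATTAACCCCTCCTAAGgcatgt
ARGLU1-204 intron start: agagagGTAACGctcggtcgtttggaaagt
ARGLU1-204 intron end: atctTAACATATCCTCCCCTTTAGgaggaa
VMP1-216 intron start: ccacagGTAAGActttaatccggtttcttc
VMP1-216 intron end: attgTTCTGCATTTATTTCTACAGggagaa
SREK1-206 intron start: acacagGTGAGAatttctgctgtcatattt
SREK1-206 intron end: attcTAACAATTTTTTTTCTTTAGgagtag
UFD1-205 intron start: gaagagGTGAGTgtatttccttgtatttcc
UFD1-205 intron end: atagTATCTTCTCTTCAAACCTAGgatgaa
ATF3-208 intron start: cagaaaGTGAGTgccttctagccttaccct
ATF3-208 intron end: ccatAAGTCTGGATTTCTCCCCAGctccca
COPA-209 intron start: tgtttgGTAAAGcaggaggcagagggctcg
COPA-209 intron end: tattGTCTTTTTTTTTTCTTGCAGtgtgtt

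The 2 short introns are shown whole, as they are the shortest of the 9. Both of their transcripts also hold longer coding introns, which are not shown. The SAFB-210 intron is at chr19:5667165-5667346 on the plus strand (182 bases, 58.2% GC), and the HNRNPD-210 intron is at chr4:82356684-82356795 on the minus strand (112 bases, 34.8% GC).
SAFB-210 intron: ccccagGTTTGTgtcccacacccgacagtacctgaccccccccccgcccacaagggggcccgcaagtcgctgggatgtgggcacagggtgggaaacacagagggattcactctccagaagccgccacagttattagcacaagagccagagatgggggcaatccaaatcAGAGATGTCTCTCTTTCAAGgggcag
HNRNPD-210 intron: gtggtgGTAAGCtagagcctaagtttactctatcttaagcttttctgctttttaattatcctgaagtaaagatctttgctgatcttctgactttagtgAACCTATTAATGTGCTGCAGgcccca

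All 9 introns begin with GT and end with AG, which was the condition for showing them. Of the 18 bases before the AG, between 10 and 16 were C or T, with the fewest in HNRNPD-210 (10) and SAFB-210 (11). Whole coding introns held by named transcripts outside chromosome 8 numbered 84, from 73 to 5153 bases long, and 82 of them had both ends.

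What a count means here follows from the deposited values, which hold reads only on bases covered by 1 annotated transcript and no other (single-transcript bases). A base of that kind was present in 22541 of the 28087 retained-intron transcripts, and none of the 5546 without one had a read. Reads were present for 8974 transcripts of 4974 genes, and 19113 transcripts had 0 counts in all libraries. After the filter on low counts, 1545 transcripts of 1198 genes were tested, and 7429 with reads were not. In 1424 of the 1545, every single-transcript base lay inside an intron of a protein-coding transcript, so nearly all tested counts are intronic reads. Only 532 of them hold a whole coding intron, and the others hold part of one. Such reads do not separate a finished transcript that keeps the intron from unspliced pre-mRNA, and which of them was counted was not tested.

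Library totals were 3760982 and 2068486 counts in methylparaben replicates 1 and 2, and 2368658 and 2182058 in ethanol replicates 1 and 2. Levels are given as CPM, the counts scaled to library size by TMM. Where a methylparaben library had 0 counts, the level may still reach 1.59 CPM, and in an ethanol library 1.32 CPM, with 3 counts as the limit. These limits cover counting error only. No label says whether both libraries of a group had a culture of their own, so p-values measure the spread between these libraries, which may be technical. VIM, which marks mesenchymal cells, had 131 and 62 counts in methylparaben libraries, against 207 and 157 in ethanol libraries. The other mesenchymal markers were low, with 10 and 5 against 7 and 9 for FN1, and 0 and 0 against 0 and 1 for CDH2. Of the epithelial markers, KRT8 had 31 and 22 against 24 and 14, and KRT18 had 27 and 6 against 16 and 5. KRT19, EPCAM, CDH1, the lung markers SFTPC, SFTPB, SCGB1A1 and NKX2-1, and the blood markers PTPRC, CD3E, CD14 and HBB were at 0 in the 4 libraries. Counts cover single-transcript bases only, so a 0 does not show that a gene had no RNA.

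Methylparaben-treated cells had a larger share of their counts on retained-intron transcripts. The share was 4.22% and 3.95% of all counts in methylparaben libraries, against 2.73% and 2.73% in ethanol libraries. The groups did not overlap, and the means were 4.08% ± 0.190 after methylparaben and 2.73% ± 0.00297 in ethanol (SD, n = 2 each), a ratio of 1.49. A two-sided exact permutation test gave p = 0.333, the smallest p that 2 libraries against 2 allow. Relative to retained-intron plus protein-coding counts, the share was 6.38% and 6.30% after methylparaben and 3.73% and 3.63% in ethanol. The denominator moved too, as mitochondrial rRNA took 10.5% and 9.75% of counts in methylparaben libraries and 4.71% and 4.12% in ethanol libraries. Without mitochondrially encoded transcripts the retained-intron share was 1.42 times higher after methylparaben.

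**Figure D1:**
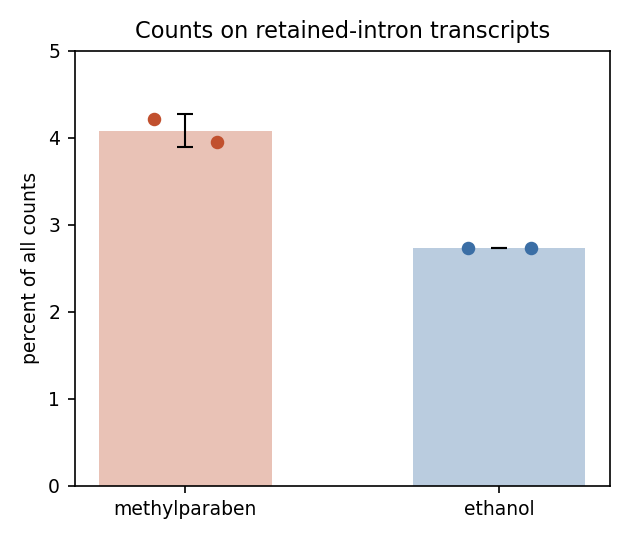
Share of all counts on retained-intron transcripts, in percent, in methylparaben and ethanol libraries. Points are libraries, bars are means and error bars are the SD of 2 libraries; the methylparaben libraries sit at 4.22% and 3.95% and the ethanol libraries at 2.73% each.

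Reads were also spread over more transcripts. With each library thinned to 2068486 counts, retained-intron transcripts with a read numbered 5614 and 6544 in methylparaben libraries, against 4393 and 5225 in ethanol libraries. Those with 10 or more reads numbered 1565 and 1567 after methylparaben, and 1052 and 1034 in ethanol. Thinning made the totals of all counts equal and not those of retained-intron counts, so the larger share also raises these numbers. How much of the difference it makes was not tested. The 5 most abundant retained-intron transcripts held 8.01% and 7.14% of all retained-intron counts in methylparaben libraries and 15.4% and 14.1% in ethanol libraries.

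Among the 1545 transcripts tested, 613 of 512 genes were higher after methylparaben and 93 of 92 genes were lower, at an adjusted p under 0.05. The test was edgeR's quasi-likelihood F-test with Benjamini-Hochberg adjustment over all 9167 transcripts tested. The called share of retained-intron transcripts was 39.7% higher and 6.02% lower, beside 20.3% higher and 19.1% lower over all transcript types. A change of at least 2-fold was seen in 595 of the higher and 88 of the lower transcripts. The median log2 fold change of retained-intron transcripts was 1.02, with an interquartile range of 0.10 to 1.91, and 76.9% were above 0. Over all types tested the median was 0.05. These counts were 312 and 29 without ethanol replicate 1, and 393 and 46 without ethanol replicate 2.

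Protein-coding transcripts of the host genes were more often lower than higher. Among 505 tested protein-coding transcripts of genes with a tested retained-intron transcript, 80 were higher and 137 lower, or 15.8% and 27.1%. Their median log2 fold change was -0.13. All protein-coding transcripts had a median of -0.18, with 14.7% called higher and 25.4% called lower of 4662. Transcripts annotated for nonsense-mediated decay had a median of 0.33 over 201, and the type named processed transcript had 0.35 over 658. Long intergenic RNAs (median -0.48 over 352) and antisense RNAs (-0.33 over 357) lay below 0.

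**Figure D2:**
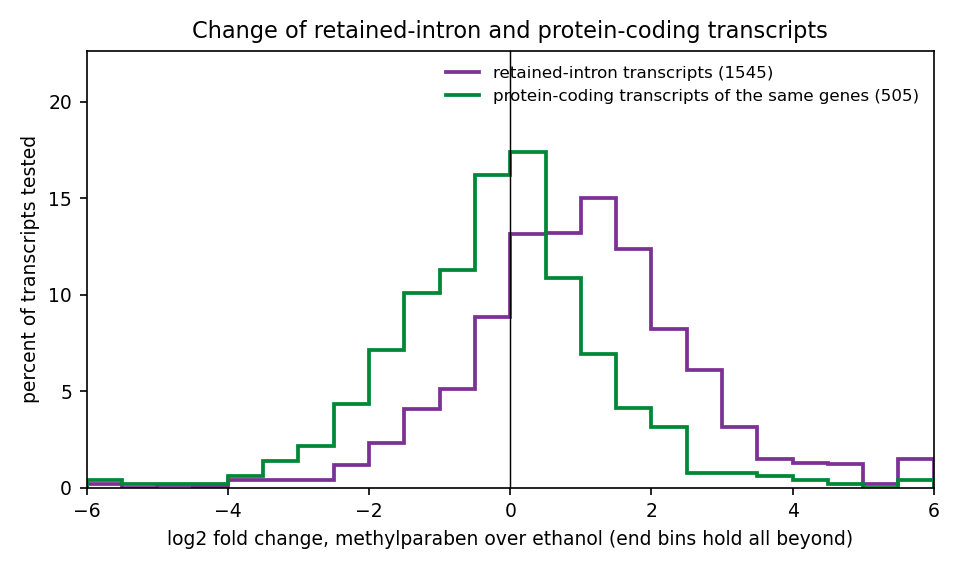
Percent of tested transcripts by log2 fold change, methylparaben over ethanol, in steps of 0.5, for 1545 retained-intron transcripts and 505 protein-coding transcripts of the same genes. The retained-intron curve lies to the right of 0, with a median of 1.02, and the protein-coding curve is centred near 0, with a median of -0.13.

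To set both kinds of read against each other within a gene, retained-intron and protein-coding counts were summed per gene, and the change of their ratio was tested. Of 9669 host genes, 3023 had reads of both kinds and 584 had enough of each to be tested. The ratio of retained-intron to protein-coding reads was higher after methylparaben in 206 genes and lower in 14, which is 35.3% and 2.4% of those tested (edgeR quasi-likelihood test of the class-by-treatment term, adjusted over 584 genes). The median change of the log2 ratio was 1.06, with an interquartile range of 0.16 to 2.15, and 460 genes were above 0. The median gene had 31.2% and 32.1% of these reads on retained-intron transcripts in methylparaben libraries, against 15.8% and 16.7% in ethanol libraries. These shares count single-transcript bases and are no shares of molecules.

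Among the 206 genes with a higher ratio, mean CPM was higher on retained-intron transcripts in 200 and lower on protein-coding transcripts in 167. Both were true of 161 genes, while 39 had more of each kind and 6 had less of each. These genes were picked by the same ratio, so the directions follow largely from the call and are no separate result. The count of called ratios rests on both methylparaben libraries. Without methylparaben replicate 1 it was 5 higher and 0 lower of 378 genes tested, with 110 at an unadjusted p under 0.05 and at most 1 called ratio in any gene list, and without methylparaben replicate 2 it was 46 higher and 4 lower. Without ethanol replicate 1 it was 144 and 5, and without ethanol replicate 2 it was 115 and 3. The median log2 change of the ratio stayed between 0.73 and 1.17 in these fits.

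**Figure D3:**
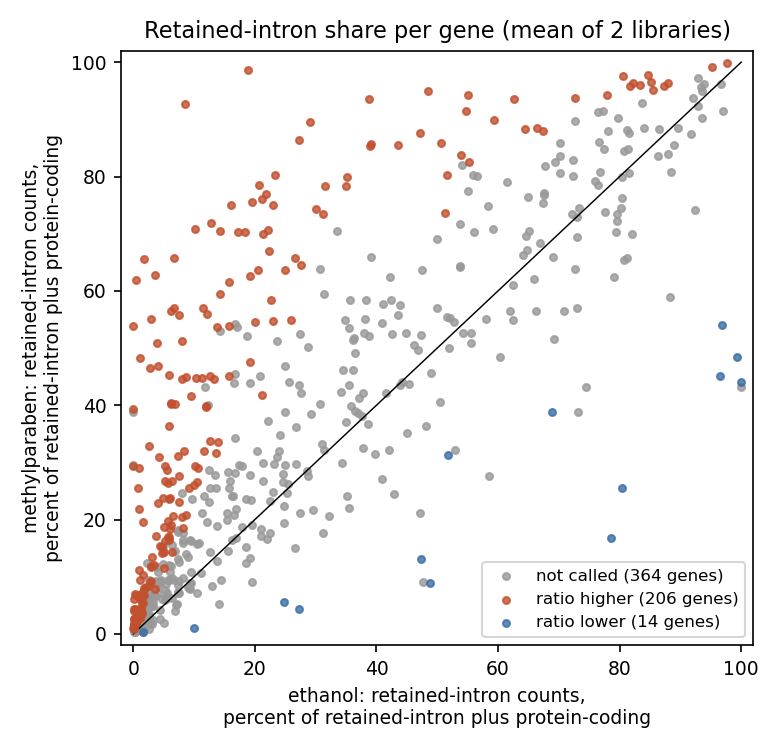
Mean percent of a gene's retained-intron plus protein-coding counts that fell on retained-intron transcripts, in methylparaben libraries (vertical axis) and in ethanol libraries (horizontal axis), for 584 genes. The 206 genes with a higher ratio lie above the diagonal and the 14 with a lower ratio below it.

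The highest ratio changes included genes outside RNA metabolism. For PAFAH1B1, a subunit of platelet-activating factor acetylhydrolase and regulator of dynein, retained-intron counts were 198 and 67 in methylparaben libraries, against 2 and 4 in ethanol libraries. Its protein-coding counts were 98 and 51 after methylparaben and 516 and 659 in ethanol. Both kinds of read separated the groups, in opposite directions. The log2 ratio changed by 8.30 ± 0.59 (SE, adjusted p = 2.1e-11, edgeR). FAM49B, also named CYRIB, a regulator of RAC1 signalling, had 258 and 108 retained-intron counts in methylparaben libraries and 21 and 38 in ethanol libraries. Its protein-coding counts were 5 and 1 after methylparaben and 131 and 120 in ethanol, and the log2 ratio changed by 8.01 ± 0.65 (adjusted p = 2.64e-10, edgeR). For IGF2R, the receptor that carries lysosomal enzymes, retained-intron counts were 29 and 14 in methylparaben libraries and 0 in both ethanol libraries. IGF2R thus met the count minimum for these reads only through the methylparaben libraries. Its protein-coding counts were 27 and 11 after methylparaben and 58 and 40 in ethanol. TBC1D31, a centriolar satellite protein, had 65 and 46 retained-intron counts in methylparaben libraries, against 1 and 4 in ethanol libraries. With either methylparaben library left out, PAFAH1B1, IGF2R and TBC1D31 fell under the count minimum and could not be fitted, as did MAGOHB, PABPC1 and RPS24 among the genes named further on. With either ethanol library left out, FAM49B, ARGLU1 and CCPG1 could not be fitted.

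Among the most abundant retained-intron transcripts, the direction differed from gene to gene. OGT-210 had 731 and 813 CPM in methylparaben libraries and 1019 and 691 CPM in ethanol libraries, so the groups overlapped. Its log2 fold change was -0.15 ± 0.20 (adjusted p = 0.59, edgeR), which does not show that it did not differ. The ratio of OGT retained-intron to protein-coding reads changed by 0.79 ± 0.41 on the log2 scale (adjusted p = 0.135, edgeR). ARGLU1-204, of a gene for an arginine- and glutamate-rich splicing cofactor, had 895 and 759 CPM after methylparaben and 757 and 712 CPM in ethanol. Its log2 fold change was 0.17 ± 0.16 (adjusted p = 0.431, edgeR). Protein-coding counts of ARGLU1 were 5 and 4 in methylparaben libraries, against 36 and 44 in ethanol libraries, and its log2 ratio changed by 3.57 ± 0.59 (adjusted p = 3.88e-05, edgeR, and 0.062 without methylparaben replicate 1).

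YBX3-208, of the cold-shock-domain RNA-binding protein YBX3, was higher, at 896 and 749 CPM in methylparaben libraries and 441 and 398 CPM in ethanol libraries (log2 fold change 0.97 ± 0.17, adjusted p = 0.00206, edgeR). VMP1-216, of an endoplasmic reticulum protein needed for autophagosome formation, had 1127 and 563 counts after methylparaben and 3050 and 2807 in ethanol. It fell by 2.09 ± 0.16 on the log2 scale (adjusted p = 4.31e-05, edgeR). Only 55.7% of its single-transcript bases are intronic, and its span at chr17:59837931-59842255 contains the MIR21 gene, and the part of either in its reads was not tested.

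DCAF8 had called retained-intron transcripts in both directions, and it is named for that after its values were seen. DCAF8-214 changed by 1.27 ± 0.35 and DCAF8-209 by -2.15 ± 0.55 on the log2 scale, with edgeR adjusted p of 0.0162 and 0.0122. DCAF8-214 lost its call without ethanol replicate 2 (adjusted p = 0.111), and DCAF8-209 without ethanol replicate 1 (0.0858) or methylparaben replicate 1 (0.0518). Of the 83 genes with 2 or more called retained-intron transcripts, 80 had all of them higher and 1 had all lower. This stands beside 613 higher of all 706 called retained-intron transcripts, and transcripts of the same gene are not independent.

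**Figure D4:**
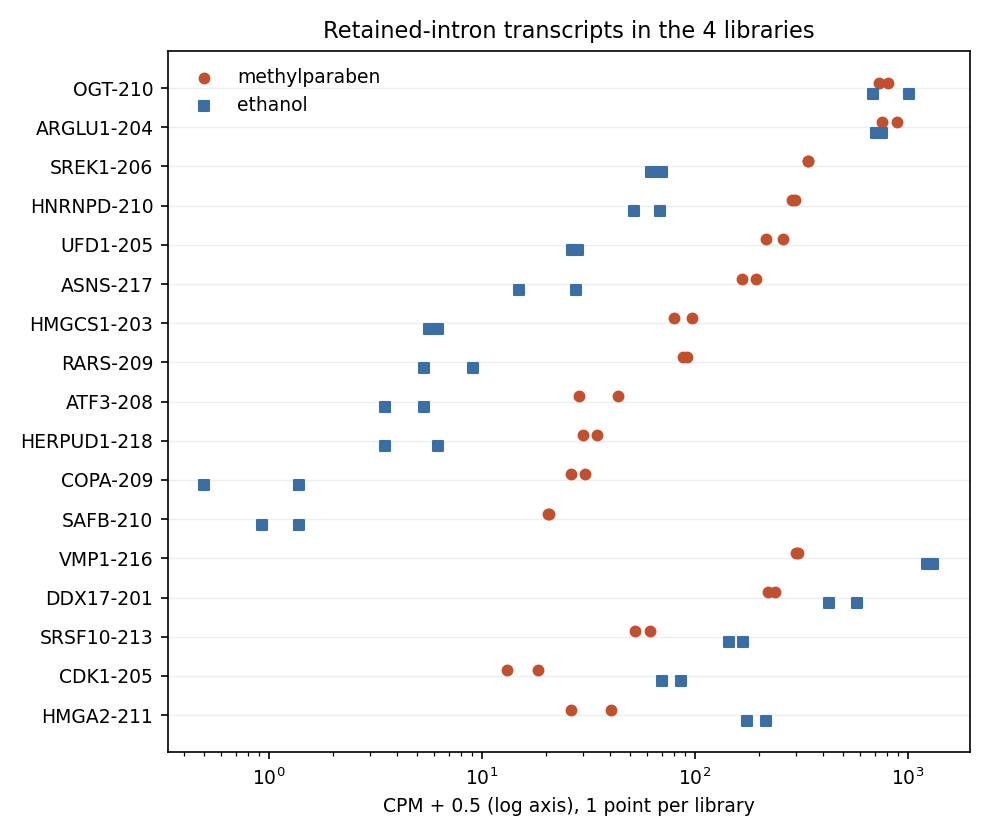
Level of 17 retained-intron transcripts as CPM plus 0.5 on a log axis, with 1 point per library, methylparaben above ethanol in each row. The groups overlap for OGT-210, while UFD1-205, ASNS-217 and HMGCS1-203 lie higher and VMP1-216, CDK1-205 and HMGA2-211 lower after methylparaben.

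The lists of splicing genes, and all lists after them, are given as counts. They stand beside 39.7% higher and 6.02% lower over all retained-intron transcripts tested, and 14.7% higher and 25.4% lower over all protein-coding ones. For ratios, the shares over all 584 genes tested were 35.3% higher and 2.4% lower. Many list shares lie near these, and most lists have few ratios tested. In the list of SR proteins, related splicing factors and their kinases, 16 of 40 tested retained-intron transcripts were higher and 3 lower, with a median log2 fold change of 0.91. Of its 19 tested protein-coding transcripts 2 were higher and 9 lower, with a median of -0.54, and the ratio was higher in 4 of 7 genes. SREK1-206, of a splicing regulatory protein rich in glutamic acid and lysine, had 1259 and 641 counts in methylparaben libraries, against 162 and 141 in ethanol libraries. It was higher by 2.36 ± 0.18 on the log2 scale (adjusted p = 4.31e-05, edgeR). SRRM1-205, of a splicing coactivator, had 276 and 150 counts after methylparaben and 48 and 50 in ethanol (1.84 ± 0.26). LUC7L-213, of a U1 snRNP-associated factor, had 52 and 21 counts in methylparaben libraries and 0 in both ethanol libraries, at least 19.9-fold higher with 3 counts as the limit over the ethanol group. SRSF10-213, of an SR-type splicing regulator, was lower, with 227 and 99 counts after methylparaben and 389 and 327 in ethanol (-1.45 ± 0.21). Higher transcripts numbered 8 without ethanol replicate 1, 9 without ethanol replicate 2 and 10 without methylparaben replicate 1.

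SRSF1, the founding SR protein, showed the pattern of both kinds of read. Its retained-intron counts were 32 and 10 in methylparaben libraries, against 3 and 1 in ethanol libraries, and its protein-coding counts were 427 and 176, against 1133 and 1001. The log2 ratio changed by 5.11 ± 0.69 (adjusted p = 3.28e-06, edgeR). It fell under the count minimum when either methylparaben library was left out.

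In the list of core spliceosome components, 17 of 28 retained-intron transcripts were higher and none lower by edgeR (also 0 lower at an unadjusted p under 0.05, and by DESeq2 and limma voom), with a median of 1.48. The ratio was higher in 7 of 12 genes, and of 33 protein-coding transcripts 3 were higher and 7 lower. RBM22-204, of a protein at the catalytic centre of the spliceosome, had 202 and 91 counts in methylparaben libraries, against 15 and 21 in ethanol libraries (log2 fold change 2.70 ± 0.34). U2AF1-212, of the factor that reads the AG at the 3′ splice site, had 215 and 130 counts after methylparaben and 36 and 31 in ethanol (2.11 ± 0.29). SF1-217, of the protein that binds the branch point, had 88 and 88 counts in methylparaben libraries, against 12 and 11 in ethanol libraries (2.77 ± 0.46). For AQR, an intron-binding helicase, 72.3% and 77.8% of the reads were on retained-intron transcripts after methylparaben and 22.9% and 23.1% in ethanol. For U2SURP, a U2 snRNP-associated protein, it was 76.9% and 79.7% against 41.5% and 28.6%. The edgeR adjusted p of these ratios was 1.66e-05 for AQR and 3.21e-05 for U2SURP, and 0.061 and 0.062 without methylparaben replicate 1. The list had 6 higher transcripts without ethanol replicate 1 and 8 without ethanol replicate 2.

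In the list of hnRNPs and other RNA-binding proteins, 11 of 37 retained-intron transcripts were higher and 4 lower, with a median of 0.57, and 5 of 11 ratios were higher. Of its 40 protein-coding transcripts, 6 were higher and 14 lower. HNRNPD-210, of the AU-rich-element binding protein AUF1, had 1060 and 562 counts in methylparaben libraries, against 119 and 154 in ethanol libraries. It was higher by 2.29 ± 0.20 on the log2 scale (adjusted p = 6.85e-05, edgeR). Protein-coding counts of HNRNPD were 98 and 25 after methylparaben and 197 and 233 in ethanol. Retained-intron reads were 91.5% and 95.7% of both kinds in methylparaben libraries, against 37.7% and 39.8% in ethanol libraries, and the log2 ratio changed by 4.55 ± 0.46 (adjusted p = 2.82e-08, edgeR). This ratio kept its call with any library left out, the largest adjusted p being 0.0234. DDX17-201, of a DEAD-box RNA helicase, was lower, with 811 and 450 counts in methylparaben libraries and 1329 and 967 in ethanol libraries (-1.13 ± 0.19). DDX5-215, of a related helicase, had 11 and 2 counts against 24 and 29 (adjusted p = 0.0116, edgeR, and 0.0823 without ethanol replicate 2).

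SAFB-210, of the scaffold attachment factor SAFB, which binds RNA and chromatin, had 75 and 38 counts in methylparaben libraries, against 1 and 2 in ethanol libraries. The ratio of counts summed per group, scaled to library size, was 30.9, with an exact 95% counting interval of 10.3 to 152. The edgeR adjusted p was 0.000407. Its shortest intron is the 182-base one shown whole.

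Genes of nonsense-mediated decay and RNA export had 15 of 22 retained-intron transcripts higher and 1, UPF3A-212, lower, which was lost without ethanol replicate 2. The median was 1.71, and of 21 protein-coding transcripts 8 were higher and 3 lower. RNPS1-213, of a protein deposited with the exon junction complex, had 174 and 108 counts in methylparaben libraries, against 23 and 21 in ethanol libraries (log2 fold change 2.43 ± 0.32). THOC1, a subunit of the THO complex that couples transcription to mRNA export, contributed 5 of the 15 higher transcripts, which share a gene and are not independent. THOC1-204 had 211 and 111 counts after methylparaben and 39 and 16 in ethanol. For MAGOHB, an exon junction complex core protein, 41.9% and 39.0% of the reads were on retained-intron transcripts in methylparaben libraries, against 6.80% and 5.50% in ethanol libraries. Without either ethanol library in turn, 9 transcripts of this list were higher.

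For the endoplasmic reticulum stress and ATF4 genes, most tested transcripts of either kind were higher. Of 18 retained-intron transcripts 12 were higher and none lower by edgeR (also 0 lower at an unadjusted p under 0.05, and by DESeq2 and limma voom), with a median of 2.33. Of 26 protein-coding transcripts 18 were higher and 1 lower, with a median of 1.53. None of the 5 genes tested had a ratio called by edgeR, nor 1 at an unadjusted p under 0.05 or by DESeq2 or limma voom, but without ethanol replicate 2 edgeR called 1 lower, that of ASNS. ASNS-217, of asparagine synthetase, had 714 and 315 counts in methylparaben libraries, against 63 and 33 in ethanol libraries (log2 fold change 3.10 ± 0.29, adjusted p = 8.88e-05, edgeR). Protein-coding counts of ASNS were 505 and 236 after methylparaben and 11 and 43 in ethanol. The share on retained-intron transcripts was 64.6% and 63.1% in methylparaben libraries and 86.6% and 58.7% in ethanol libraries, which overlap, and the ratio change was -0.58 ± 0.53 on the log2 scale (adjusted p = 0.41, edgeR). Without ethanol replicate 2 it was -1.86 (adjusted p = 0.0445, edgeR). HERPUD1, a membrane protein of the degradation machinery, had 4 higher retained-intron transcripts. Its log2 ratio changed by -0.45 ± 0.56 (adjusted p = 0.575, edgeR). ATF3-208, of a stress-induced transcription factor, had 104 and 82 counts after methylparaben and 7 and 11 in ethanol (3.15 ± 0.44). In this list 7 transcripts were higher without ethanol replicate 1 and likewise without methylparaben replicate 1.

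Aminoacyl-tRNA synthetase genes had 8 of 12 retained-intron transcripts higher and 1, NARS-209, lower, with a median of 2.55. None was lower by DESeq2, or by edgeR without ethanol replicate 1, ethanol replicate 2 or methylparaben replicate 2. Of 13 protein-coding transcripts 1 was higher and 3 lower. RARS, the arginyl-tRNA synthetase, supplied 3 of the 8. RARS-209 had 340 and 167 counts in methylparaben libraries, against 20 and 11 in ethanol libraries, and RARS-202 had 266 and 112, against 12 and 8 (log2 fold changes 3.73 ± 0.33 and 3.90 ± 0.35). GARS-209, of glycyl-tRNA synthetase, had 58 and 37 counts after methylparaben and 2 and 1 in ethanol, a ratio of 26.0 with an exact 95% interval of 8.61 to 128. LARS, the leucyl-tRNA synthetase, was the gene of this list whose ratio was called higher, of 3 tested. Its retained-intron share was 40.9% and 38.9% in methylparaben libraries and 11.3% and 12.6% in ethanol libraries (edgeR adjusted p = 0.000301, and 0.078 and 0.052 without methylparaben replicate 1 or 2).

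Cholesterol synthesis and SREBP genes had 10 of 12 retained-intron transcripts higher and none lower by edgeR (also 0 lower at an unadjusted p under 0.05, and by DESeq2 and limma voom), with a median of 2.93. Of 12 protein-coding transcripts 4 were higher and 1 lower, with a median of 0.70. None of 3 ratios was called by edgeR, DESeq2 or limma voom, and 1 was higher at an unadjusted p under 0.05. HMGCS1, the synthase of hydroxymethylglutaryl-CoA, had 357 and 151 counts on HMGCS1-203 in methylparaben libraries, against 12 and 13 in ethanol libraries (log2 fold change 4.01 ± 0.31, adjusted p = 4.31e-05, edgeR). HMGCS1-207 had 182 and 50 counts after methylparaben and 0 in both ethanol libraries, at least 63.4-fold higher. ACSS2-223, of the cytosolic acetyl-CoA synthetase, had 269 and 133 counts in methylparaben libraries, against 52 and 38 in ethanol libraries (1.86 ± 0.28). The list had 6 higher transcripts without ethanol replicate 1.

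Genes of endoplasmic reticulum translocation, glycosylation and vesicle transport had 13 of 18 retained-intron transcripts higher and 1, SSR3-204, lower, with a median of 2.16. None was lower in any of the 4 fits without 1 library, nor by DESeq2 or limma voom, so SSR3-204 lost its call in each. Of 41 protein-coding transcripts 13 were higher and 6 lower, and 5 of 11 ratios were higher. COPA-209, of the alpha subunit of the COPI coat, had 95 and 57 counts in methylparaben libraries, against 0 and 2 in ethanol libraries (ratio 62.3, exact 95% interval 16.9 to 519). COPB2-204, of another COPI subunit, had 40 and 16 counts after methylparaben and 0 in both ethanol libraries, at least 15.3-fold higher. GOLGA2-209, of a Golgi matrix protein, had 46 and 38 counts in methylparaben libraries, against 4 and 2 in ethanol libraries. Of this list, 5 transcripts were higher without ethanol replicate 1 and 7 without ethanol replicate 2.

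Heat shock protein and chaperone genes had 12 of 24 retained-intron transcripts higher and none lower by edgeR (also 0 lower at an unadjusted p under 0.05, and by DESeq2 and limma voom), with a median of 1.51. Their 26 protein-coding transcripts were divided, with 6 higher and 7 lower, and none of 4 ratios was called by edgeR, nor 1 at an unadjusted p under 0.05 or by DESeq2 or limma voom. HSPA9-213, of mitochondrial HSP70, had 219 and 85 counts in methylparaben libraries, against 17 and 21 in ethanol libraries (log2 fold change 2.65 ± 0.34). HSP90AA1-207, of inducible HSP90, had 72 and 35 counts after methylparaben and 2 and 0 in ethanol (ratio 43.8, exact 95% interval 11.8 to 367). HSPD1-211, of mitochondrial HSP60, had 133 and 75 counts in methylparaben libraries, against 27 and 27 in ethanol libraries (1.67 ± 0.32). The higher transcripts were 7 without ethanol replicate 1.

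**Figure D5:**
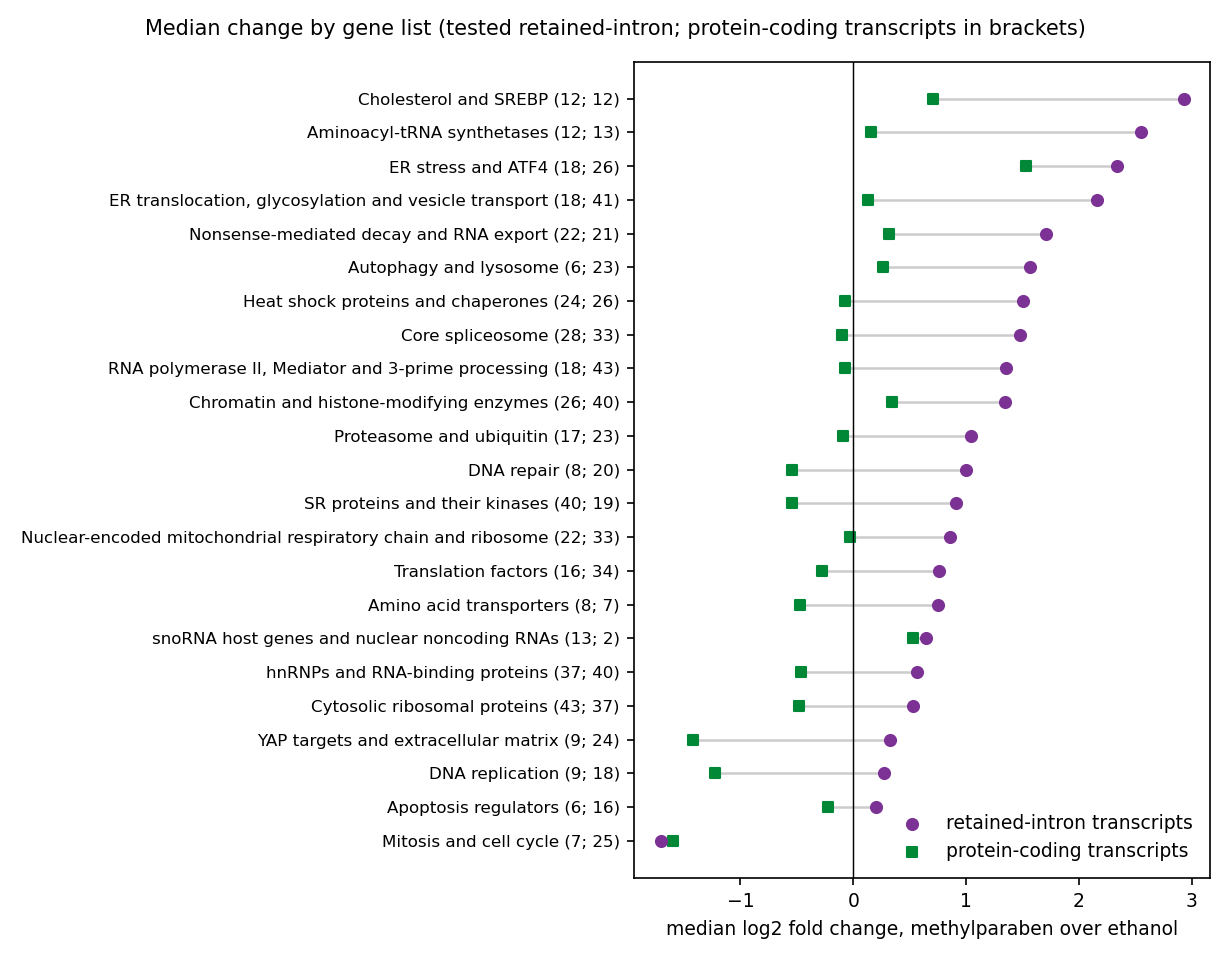
Median log2 fold change, methylparaben over ethanol, of tested retained-intron transcripts (circles) and tested protein-coding transcripts (squares) for each gene list with at least 5 tested retained-intron transcripts; both numbers tested stand in brackets. The retained-intron median exceeds the protein-coding median in every list shown except mitosis and cell cycle, where they are -1.71 and -1.59.

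Proteasome and ubiquitin genes had 8 of 17 retained-intron transcripts higher and 1 lower. UFD1-205, of the cofactor that brings ubiquitylated proteins to VCP, had 795 and 490 counts in methylparaben libraries, against 60 and 63 in ethanol libraries. Its log2 fold change of 3.14 ± 0.22 had the adjusted p of 2.91e-05 (edgeR). PSME4-209, of a proteasome activator, had 160 and 78 counts after methylparaben and 27 and 19 in ethanol (2.07 ± 0.34). Without ethanol replicate 1, 3 transcripts of this list were higher.

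Genes of the respiratory chain and the mitochondrial ribosome had 7 of 22 retained-intron transcripts higher and 1 lower. For ATP5MC3, a gene of the c subunit of ATP synthase, retained-intron counts were 268 and 87 in methylparaben libraries, against 29 and 24 in ethanol libraries. Its protein-coding counts were 205 and 68 after methylparaben and 406 and 399 in ethanol. The retained-intron share was 56.7% and 56.1% in methylparaben libraries and 6.67% and 5.67% in ethanol libraries, and the ratio kept its call with any library left out (4.29 ± 0.46 on the log2 scale, adjusted p = 6.5e-08, at most 0.0407, edgeR). NDUFA10-212, of a complex I subunit, had 760 and 470 counts after methylparaben and 192 and 195 in ethanol (1.42 ± 0.19). The higher transcripts were 3 without ethanol replicate 1.

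For cytosolic ribosomal protein genes the median was nearer to 0. Of 43 retained-intron transcripts 11 were higher and none lower by edgeR (1 lower at an unadjusted p under 0.05, and 0 by DESeq2 and limma voom), with a median of 0.53, beside 5 higher and 11 lower of 37 protein-coding transcripts. RPL9-213 had 93 and 57 counts in methylparaben libraries, against 18 and 11 in ethanol libraries (log2 fold change 2.11 ± 0.41). RPS3A-206 had 244 and 89 counts after methylparaben and 54 and 46 in ethanol (1.38 ± 0.29). Among 19 ratios tested 3 were higher and 1, of RPS24, was lower. Without ethanol replicate 1, 3 transcripts of this list were higher, and without ethanol replicate 2 or methylparaben replicate 1 it was 7.

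Chromatin genes had 14 of 26 retained-intron transcripts higher and 1 lower, and ARID2-209, of a subunit of a SWI/SNF complex, had 161 and 80 counts in methylparaben libraries, against 21 and 8 in ethanol libraries. SETD5-217, of a SET-domain protein, had 36 and 29 counts after methylparaben and 0 in both ethanol libraries, at least 17.8-fold higher. The chromatin list had 3 higher transcripts without ethanol replicate 1, 5 without ethanol replicate 2, 7 without methylparaben replicate 1 and 6 without methylparaben replicate 2. Genes of RNA polymerase II, Mediator and 3′ processing had 7 of 18 higher and 1 lower, and translation factors had 6 of 16 higher. EIF5-208, of the GTPase activator of translation initiation, had 25 and 13 counts in methylparaben libraries and 0 in both ethanol libraries, at least 10.4-fold higher. Autophagy and lysosome genes had 4 of 6 higher, among them ATG12-203, of the ubiquitin-like ATG12, with 323 and 129 counts after methylparaben and 42 and 60 in ethanol (log2 fold change 1.81 ± 0.29). With 1 library left out, the higher transcripts numbered 2 to 4 for polymerase and Mediator, 2 to 6 for translation factors and 1 to 3 for autophagy, with the lowest counts without ethanol replicate 1, methylparaben replicate 1 and ethanol replicate 2 in that order.

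Mitosis and cell cycle genes were the list with more lower than higher retained-intron transcripts, 3 against 1 of 7 tested, with a median of -1.71. Of their 25 protein-coding transcripts 18 were lower and 1 higher. Of 3 ratios tested 2 were higher, of CKAP2 and BUB1, and none lower by edgeR, while 1 was higher by DESeq2. Retained-intron counts of BUB1 were 12 and 9 in methylparaben libraries, against 14 and 17 in ethanol libraries. Its protein-coding counts were 0 and 1 after methylparaben and 15 and 18 in ethanol. BUB1 could not be fitted with either ethanol library left out, nor CKAP2 with either methylparaben library left out. CDK1-205, of the kinase that drives entry into mitosis, had 47 and 34 counts in methylparaben libraries, against 198 and 158 in ethanol libraries (log2 fold change -2.36 ± 0.30, adjusted p = 0.000364, edgeR). CDK1-206 had 51 and 25 counts after methylparaben and 105 and 98 in ethanol (-1.71 ± 0.30). Both CDK1 transcripts share a gene and are not independent. WEE1-203, of a kinase that holds CDK1 inactive, had 17 and 10 counts in methylparaben libraries, against 38 and 42 in ethanol libraries (adjusted p = 0.00979, edgeR, and 0.0527 without ethanol replicate 2). CKAP2-204, of a mitotic spindle protein, was the higher one, with 26 and 11 counts after methylparaben and 0 and 1 in ethanol (adjusted p = 0.00443, edgeR, and 0.0687 without ethanol replicate 1). Of the YAP target and extracellular matrix list none of 9 retained-intron transcripts was called by edgeR, DESeq2 or limma voom and 2 were lower at an unadjusted p under 0.05, while 15 of 24 protein-coding transcripts were lower and 1 higher. Without methylparaben replicate 1, 1 of its 10 retained-intron transcripts tested was higher.

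In the remaining lists few retained-intron transcripts were tested. DNA replication genes had 2 of 9 higher and 1 lower, amino acid transporter genes 2 of 8 higher, apoptosis regulators 1 of 6 higher and 1 lower, and DNA repair genes 4 of 8 higher. With 1 library left out, the higher transcripts numbered 0 to 2 for DNA replication, 1 to 2 for amino acid transporters, 0 to 1 for apoptosis regulators (0 without ethanol replicate 1) and 0 to 2 for DNA repair (0 without ethanol replicate 1). For DNA replication the 0 came without ethanol replicate 2 or methylparaben replicate 1, and for the transporters the 1 came without either ethanol library. Hypoxia and glycolysis genes had 2 of 3 higher and 1 lower (1 higher without ethanol replicate 1 or methylparaben replicate 2, and 0 lower without either ethanol library or methylparaben replicate 1), genes of NRF2, heme and ferritin 1 of 3 higher, and snoRNA host genes 4 of 13 higher (1 without ethanol replicate 1 or methylparaben replicate 1, and 2 without ethanol replicate 2). No retained-intron transcript of an immediate early gene passed the filter. The 26 lists together held 424 tested retained-intron transcripts, of which 188 were higher and 20 lower. Of the 1121 tested transcripts in no list 425 were higher and 73 lower.

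Several of the largest increases were of transcripts with no or few reads in ethanol libraries. ATP13A3-215, of a polyamine-transporting ATPase, had 163 and 95 counts in methylparaben libraries and 0 in both ethanol libraries, at least 70.5-fold higher. TMEM41B-206, of an endoplasmic reticulum lipid scramblase, had 60 and 19 counts after methylparaben and 0 in both ethanol libraries, at least 21.6-fold higher. XPOT-205, of the tRNA exporter exportin-T, had 103 and 34 counts in methylparaben libraries, against 0 and 2 in ethanol libraries (ratio 56.1, exact 95% interval 15.2 to 468). In all, 19 higher transcripts had 0 counts in both ethanol libraries and 3 lower ones had 0 in both methylparaben libraries. Such transcripts, here and in other paragraphs, passed the filter on low counts only through the group where they had reads. The direction of their change was thereby given in advance.

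Decreases at a mean of 5 CPM or more included transcripts of genes with varied roles, and 4 of them are described. HMGA2-211, of an architectural chromatin protein of fetal and tumour cells, had 147 and 49 counts in methylparaben libraries, against 407 and 489 in ethanol libraries (log2 fold change -2.55 ± 0.25, adjusted p = 0.000108, edgeR). DCBLD2-206, of a transmembrane receptor, had 19 and 19 counts after methylparaben and 133 and 88 in ethanol (-2.73 ± 0.41). FAM161A-206, of a ciliary protein, had 7 and 1 counts in methylparaben libraries, against 38 and 35 in ethanol libraries. ACAA2-207, of a mitochondrial thiolase, had 7 and 7 counts after methylparaben and 34 and 42 in ethanol. DCBLD2-206 lies within the span of another gene, ST3GAL6, and HMGA2-211 overlaps RPSAP52 in part. The counts do not use strand, so reads of the overlapping genes outside their annotated exons cannot be told apart there. Of the transcripts in other paragraphs, COPA-209 spans SUMO1P3 and RF00019, DDX5-215 spans MIR3064 and MIR5047, and PAFAH1B1-205 spans RN7SL608P. The part of these in the reads was not tested.

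Among the 14 genes with a lower ratio, 12 had lower retained-intron CPM and 12 had higher protein-coding CPM, which follows largely from the call. CCPG1, an autophagy receptor for the endoplasmic reticulum, had 4 and 3 retained-intron counts in methylparaben libraries, against 10 and 15 in ethanol libraries, and 579 and 231 protein-coding counts, against 125 and 105. Its log2 ratio changed by -3.57 ± 0.70 (adjusted p = 0.000221, edgeR, and 0.0981 without methylparaben replicate 1). PABPC1, the cytoplasmic poly(A)-binding protein, had 29 and 25 retained-intron counts after methylparaben and 23 and 29 in ethanol, and 25 and 21 protein-coding counts after methylparaben and 0 and 2 in ethanol (adjusted p = 0.00251, edgeR). RPS24 had 95 and 33 retained-intron counts in methylparaben libraries, against 65 and 83 in ethanol libraries, and 52 and 69 protein-coding counts, against 1 and 0. The edgeR adjusted p for RPS24 was 7.85e-06, and 0.0542 without ethanol replicate 2. RPS24 and PABPC1 belong to families with near-identical pseudogenes, and their counts are uncertain.

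Sequence features of the tested transcripts are given as descriptions. Median length was 2008 bases in higher, 2519 in lower and 2122 in uncalled transcripts, and the median number of single-transcript bases was 800, 1177 and 832. Median GC content over the whole transcript sequence was 40.9% in higher, 41.0% in lower and 41.1% in uncalled transcripts. Their median position was 67.6%, 61.1% and 64.7% of the gene from its 5′ end. A whole coding intron was held by 199 of the 613 higher and 32 of the 93 lower transcripts. Median level in ethanol libraries was 3.27 CPM for higher, 15.1 CPM for lower and 6.76 CPM for uncalled transcripts. In methylparaben libraries it was 16.3, 3.48 and 8.44 CPM in that order. Both levels enter the fold change that set these classes, so their order follows from the calls.

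At the threshold, VCP-204 (log2 fold change 1.59 ± 0.58, adjusted p = 0.0496) and CBWD2-207 (2.06 ± 0.75, 0.0499) were just inside, and RGPD5-209 (2.36 ± 0.86, 0.0507) and ESPL1-203 (-1.83 ± 0.67, 0.0513) were just outside, by edgeR. RGPD6-206, RGPD5-209 and CBWD2-207 belong to families of near-identical copies, and VDAC1P8-213 is annotated to a pseudogene and has no intronic single-transcript base, so these values are uncertain. TAF1D-215 and BTBD19-207 had no intronic single-transcript base either, and NEU1-209 and NCL-207 had 44.4% and 38.9%. The authors' deposited table gave 955 retained-intron transcripts an adjusted p under 0.05, of which 553 were also called here. That is 57.9% of the authors' transcripts and 78.3% of the 706 called here.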

How the data were processed

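Polyadenylated RNA of 2 methylparaben and 2 ethanol libraries was analysed from a table of raw read counts per transcript that the authors deposited, without normalisation. A second deposited table gives FPKM, log2 of FPKM plus 1, transcript types, and the authors' p-value and adjusted p-value. Per the submitters' processing notes the build is GRCh38, and edgeR, limma and DESeq2 were used in roles not stated. Aligner and counter are not given in the sources used. The tables were joined on the transcript ID without version, and exons were taken from GENCODE release 29. Positions are counted from 1.

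Counts were filtered with filterByExpr (minimum count 10, total 15), scaled by TMM and compared with edgeR 4.0.16 in R 4.3.3 (quasi-likelihood F-test, two-sided, Benjamini-Hochberg, threshold 0.05) over all transcripts tested. SE is the log2 fold change over the square root of F. For the ratio, counts of each class were summed per gene, with at least 10 in 2 libraries per class, and fitted with a library term. Fits were tested on simulated data. Alternatives were RLE, upper-quartile and library-size scaling, no or a 5 CPM filter, DESeq2 1.42.0, limma 3.58.1 voom, log2 FPKM with pseudocounts of 1 and 0.1, a replicate block, and each library left out, where the lone library is assumed to vary like the others. Same-numbered replicates did not deviate together (correlation -0.125 over transcripts), so numbers were not used as pairs.

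Members and gene lists were chosen with earlier results of these data known. Named transcripts were the 5 most abundant, the 12 largest changes each way at 5 CPM or more, and up to 4 per list by smallest p. Ratios named were the 8 highest and lowest, and up to 2 per list. Results of some named transcripts are not reported here.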

Additional observations from a re-analysis of the deposited data

How the results depend on the processing

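All 613 higher and 93 lower retained-intron transcripts kept their direction in every alternative in which they were tested. DESeq2 called 396 higher and 51 lower, 447 in all. With 1 library left out, between 341 and 611 were called, 312 to 532 higher and 29 to 79 lower. Protein-coding transcripts of the host genes numbered 636 called without a filter (234 higher, 402 lower) and 217 with it. With 1 library left out they ranged from 168 to 242.

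Called ratios numbered 124 with at least 20 counts per class (121 higher, 3 lower). Lower ratios were 8 with DESeq2 and 23 with each transcript tested by itself. With 1 library left out, between 5 and 149 ratios were called, 5 to 144 higher and 0 to 5 lower. At the lowest, without methylparaben replicate 1, 378 genes were tested in place of 584, and all 121 of the higher genes still tested kept their direction. The methylparaben over ethanol ratio of the retained-intron share was 1.72 relative to protein-coding plus retained-intron counts, 1.42 without mitochondrial transcripts and 1.59 by FPKM. Called transcripts in the lists numbered 208, or 128 with DESeq2 and 97 to 174 with 1 library left out. Log2 values that were not called turned sign with 1 library left out, for OGT-210 (-0.40 to 0.12) and the ratios of HERPUD1 (-1.08 to 0.042) and ASNS (-1.86 to 0.32, the lower value called, adjusted p = 0.0445, edgeR). The causes were not tested.

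With the replicate block, 573 retained-intron transcripts (506 higher, 67 lower) and 229 ratios were called. The numbers do not pair the samples, and with the numbers crossed, chosen after seeing the data, 654 were called. Upper-quartile scaling put the median of all transcripts at 0.11 and library size alone at -0.03, against 0.05.

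At this depth 7429 retained-intron transcripts with reads were too low to test. A further 1789 host genes with retained-intron reads and a protein-coding transcript had no read on any protein-coding transcript, so their ratio was not tested.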
